A study of Mus musculus with 26 samples.

Results

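The genes described here encode the chains of type VI collagen, *Col6a1*, *Col6a2* and *Col6a3*, and of 4 fibril-associated collagens, *Col12a1*, *Col14a1*, *Col16a1* and *Col20a1*. They were chosen by name, as matrix genes of 1 structural family, and matched to the Ensembl identifiers of the deposited count table. Earlier results of these data were known when they were chosen. All 7 were among the 52962 genes in that table, and all 7 passed the filter on low counts, which left 15402 genes for testing. Their transcripts were followed across the 9 groups of the study, 26 libraries in all.

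The study asked how the insulin receptor acts on gene expression through its kinase, its C-terminus and its intracellular domain. All cells were brown preadipocytes from newborn mice homozygous for IR-lox and IGF1R-lox, immortalised with SV40 T-antigen and infected with an adenovirus carrying GFP-tagged Cre, so every group was, by its label, a double knockout (DKO) of both endogenous receptors. DKO cells were compared with DKO cells transduced with a pBabe retrovirus for the human receptor (B isoform): the intact receptor (IR), a receptor with the kinase-inactivating K1030R mutation (K1030R), a receptor without the last 79 amino acids (∆CT), or a receptor that kept only the 36 amino acid juxtamembrane stretch of its intracellular domain (JMO). After 6 h without serum, cells of the 4 receptor lines were left unstimulated or given 100 nM insulin for 15 min, and DKO cells were left unstimulated. Each group held 3 libraries, except ∆CT with insulin, which held 2. Each receptor was represented by 1 transduced, hygromycin-selected cell population driven by the viral promoter, so that the replicates were dishes of 1 line and p-values measure only the spread between these dishes, while a receptor and the line that carries it cannot be told apart. Whether the sequenced DKO cells had received the empty vector is not given in the sources used here.

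Type VI collagen is a microfibrillar collagen of connective tissue and an abundant component of the matrix around fat cells. Its chains α1, α2 and α3 each have a short triple-helical stretch between von Willebrand factor A domains, join into a heterotrimer and assemble further into beaded filaments outside the cell, and the C-terminal end of the α3 chain is released from adipose tissue as a fragment called endotrophin. Fibril-associated collagens with interrupted triple helices do not build fibrils of their own; types XII and XIV lie on the surface of type I collagen fibrils, and type XVI and type XX chains are counted in the same family by their interrupted helices.

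The triple helix is what makes these chains collagens, and it needs a glycine at the head of each Gly-X-Y triplet. To show this shared feature, the first 15 codons of the longest run of Gly-X-Y triplets in the longest coding transcript of each gene (GENCODE M21, GRCm38) are given below with the glycine codons in capitals. They lie at chr10:76719668-76720996 for *Col6a1* (minus strand, exons 8 and 9), chr10:76611993-76613290 for *Col6a2* (minus strand, exons 5 and 6), chr1:90791969-90792445 for *Col6a3* (minus strand, exons 22 and 23), chr9:79612934-79613769 for *Col12a1* (minus strand, exons 56 and 57), chr15:55471708-55472962 for *Col14a1* (plus strand, exons 38 and 39), chr4:130079646-130079690 for *Col16a1* (plus strand, exon 47) and chr2:181013154-181013271 for *Col20a1* (plus strand, exons 28 and 29).
Col6a1: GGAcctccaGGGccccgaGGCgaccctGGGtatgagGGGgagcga
Col6a2: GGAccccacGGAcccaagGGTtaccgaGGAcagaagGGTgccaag
Col6a3: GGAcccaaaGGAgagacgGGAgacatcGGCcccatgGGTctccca
Col12a1: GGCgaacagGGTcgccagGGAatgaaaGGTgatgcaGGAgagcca
Col14a1: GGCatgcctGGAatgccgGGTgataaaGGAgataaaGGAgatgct
Col16a1: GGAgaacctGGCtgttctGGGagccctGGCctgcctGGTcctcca
Col20a1: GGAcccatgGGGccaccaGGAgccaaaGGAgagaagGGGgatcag

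The 7 chains differ in how much of them is triple helix. Runs of at least 3 Gly-X-Y triplets covered 28.1% of the 1025 codons of *Col6a1* and 31.9% of the 1034 codons of *Col6a2*, with a longest run of 87 triplets in each. In *Col6a3*, whose 3284 codons hold many more von Willebrand factor A domains, they covered 7.95%. Among the fibril-associated chains the share was 7.63% of 3065 codons in *Col12a1*, 13.0% of 1798 in *Col14a1* and 11.0% of 1362 in *Col20a1*, and the longest run was 32 triplets in each of the 3. *Col16a1* was built otherwise, with 18 separate runs, the longest of 52 triplets, that together covered 58.1% of its 1580 codons. *Col6a1* and *Col6a2* lie on the same strand of chromosome 10, 85161 bases apart with 1 annotated gene, *Gm35608*, between them. Annotated genes overlap 4 of the 7. For *Col6a3* (*Gm36970*) and *Col20a1* (BX649560.1) the neighbour lies on the same strand, and for *Col12a1* (4930562D21Rik) and *Col14a1* (3 genes) on the opposite one. The reads were reverse-stranded, but whether the counting used the strand is not given in the sources used here.

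The libraries held between 17229000 and 24694800 estimated counts. *Insr*, measured as a check of the lines, stood at a mean of 23.8 CPM (counts scaled to the library total, with TMM factors) in DKO cells and at 67.7 to 78.4 CPM in the 4 receptor lines without insulin, and *Igf1r* stood at 27.1 CPM in DKO cells and 30.1 to 35.1 CPM in the others. Neither transcript was absent from DKO cells, and counts per gene do not resolve the deleted part, so these levels do not check the deletion. The introduced receptors were human and reads were aligned to mouse transcripts, so the *Insr* level does not measure their expression. Of the stromal markers of the labelled preadipocytes, *Pdgfrb* stood at 559 to 630.3 and *Pdgfra* at 164 to 278 CPM in mean. By edgeR, *Pdgfra* was called higher than DKO in IR (log2 0.76), ∆CT (0.51) and JMO cells (0.43). *Pdgfrb* was called lower in IR (-0.17), K1030R (-0.08) and JMO cells (-0.11). *Pparg*, at 4.56 CPM in DKO, was called lower in IR cells alone (2.76 CPM, log2 -0.73). Others differed between DKO and all 4 receptor lines. *Ly6a* was at 44.9 CPM in DKO and 2.9 to 10.7 CPM in the receptor lines (log2 -2.06 to -3.96). *Thy1* was at 6.62 against 21.8 to 28.8 CPM (1.72 to 2.12) and *Cd34* at 3.45 against 4.93 to 14.2 CPM (0.49 to 2.03). These were all called by edgeR in the 4 lines. The part of these changes in the results below was not tested. *Ebf2* and *Dlk1*, also listed as preadipocyte markers, reached at most 0.287 CPM in mean. Of the mature adipocyte markers, *Adipoq*, *Cidec*, *Ucp1* and *Lep* were listed at 0 in all groups without insulin, and *Plin1* stood at 0.0685 to 0.127 CPM in mean. The summed level of 5 macrophage markers moved with the lines, at 14.2 to 16.6 CPM in DKO and 12.6 to 14.7 CPM in JMO libraries against 7.68 to 10.1 CPM in the other libraries without insulin. That sum was mostly *Lyz2*, with the defining marker *Adgre1* listed at 0, and its part in the results below was not tested. In such bulk libraries, fewer cells of a type and less RNA per cell cannot be told apart.

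Per length of transcript, *Col6a1* was the most abundant of the 7 transcripts in each group, and the type VI chains together made up most of the family. In DKO cells the level was 205 CPM per kb for *Col6a1*, 56.3 for *Col6a2* and 17.3 for *Col6a3*. *Col12a1* at 50.9 and *Col16a1* at 49.6 CPM per kb were close to *Col6a2* there, whereas *Col20a1* (0.662) and *Col14a1* (0.0525) were rare. The 3 type VI chains held 73.4% of the summed CPM per kb of the 7 genes in DKO cells, 80.6% in IR, 79.3% in ∆CT, 76.3% in K1030R and 72.0% in JMO cells without insulin. *Col6a1* alone held 50.7% to 54.3% in the 9 groups. Lengths were those of the longest transcript.

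**Figure D1:**
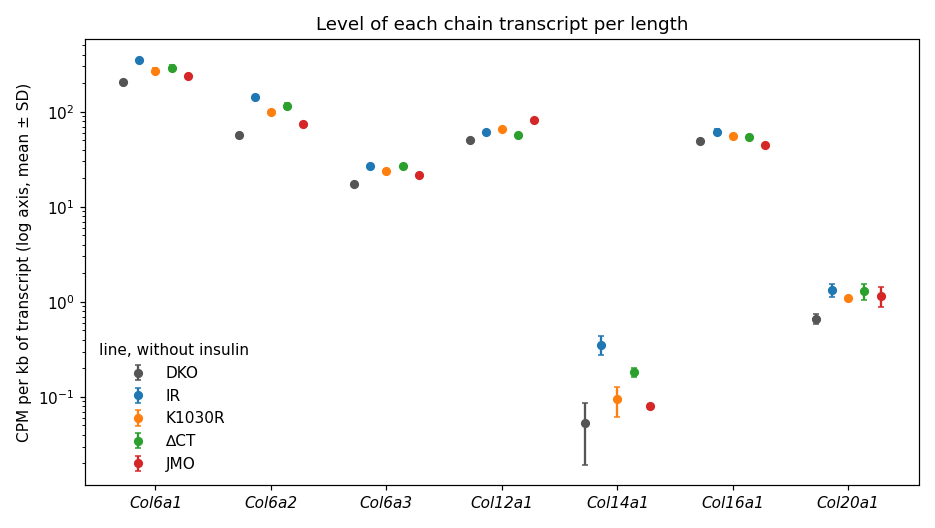
Level of each chain transcript in CPM per kb of transcript (log axis) in the 5 lines without insulin, as the mean of 3 libraries with bars for the SD. *Col6a1* lies highest (205 CPM per kb in DKO cells) and *Col14a1* lowest (0.0525 CPM per kb), and the span between genes is wider than the span between lines for each gene.

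All 3 type VI chains were higher in each of the 4 receptor lines than in DKO cells, and among the receptor lines each had its highest mean in IR and its lowest in JMO cells, with ∆CT level with IR for *Col6a3*. *Col6a1*, which encodes the α1 chain, stood at 816, 836 and 875 CPM in the DKO libraries and at 1448, 1453 and 1381 CPM in the IR libraries. The K1030R libraries gave 1049, 1171 and 1112 CPM, the ∆CT libraries 1169, 1129.5 and 1288 CPM, and the JMO libraries 947, 951 and 998 CPM. No library of a receptor line fell into the range of DKO cells, and K1030R and ∆CT were the only neighbours that overlapped. Such separation was common. Without insulin, 47.0% to 54.9% of all tested genes did not overlap between DKO and a given receptor line. Between 2 receptor lines the share was 18.1% (∆CT and K1030R) to 49.3% (IR and JMO). These shares stand beside every gene described below. The log2 fold change of *Col6a1* against DKO was 0.76 ± 0.04 (SE) in IR cells, a 1.69-fold difference (edgeR quasi-likelihood test, adjusted p = 2.19e-17). It was 0.50 ± 0.04 in ∆CT (adjusted p = 9.08e-13), 0.40 ± 0.04 in K1030R (adjusted p = 2.77e-10) and 0.20 ± 0.04 in JMO cells (adjusted p = 0.000146), by the same test.

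*Col6a2*, which encodes the α2 chain, had the widest range of the 3. It stood at 263, 272 and 295 CPM in DKO cells, at 721, 710.4 and 664 CPM in IR cells and at 353, 352 and 382 CPM in JMO cells. In K1030R cells it stood at 465, 509 and 493 CPM, and in ∆CT cells at 558, 529 and 613 CPM. The 5 lines did not overlap in these libraries, in the rising order DKO, JMO, K1030R, ∆CT and IR. The difference from DKO was 2.52-fold in IR cells (log2 1.34 ± 0.05, edgeR adjusted p = 7.05e-19), 2.05-fold in ∆CT cells (adjusted p = 2.68e-16), 1.77-fold in K1030R cells (adjusted p = 5.3e-14) and 1.31-fold in JMO cells (adjusted p = 2.72e-07).

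*Col6a3*, which encodes the large α3 chain, moved least between the receptor lines. Its CPM was 173, 171 and 179 in DKO cells, 271, 276 and 264 in IR cells and 262, 264 and 280.2 in ∆CT cells. It was 236, 253 and 239 in K1030R cells and 212, 214 and 225 in JMO cells. IR and ∆CT libraries overlapped, and every receptor line lay above DKO. Against DKO the log2 fold change was 0.63 ± 0.04 in IR (edgeR adjusted p = 8.08e-16), 0.62 ± 0.04 in ∆CT (adjusted p = 1.4e-15), 0.47 ± 0.04 in K1030R (adjusted p = 2.04e-12) and 0.31 ± 0.04 in JMO cells (adjusted p = 4.97e-08).

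**Figure D2:**
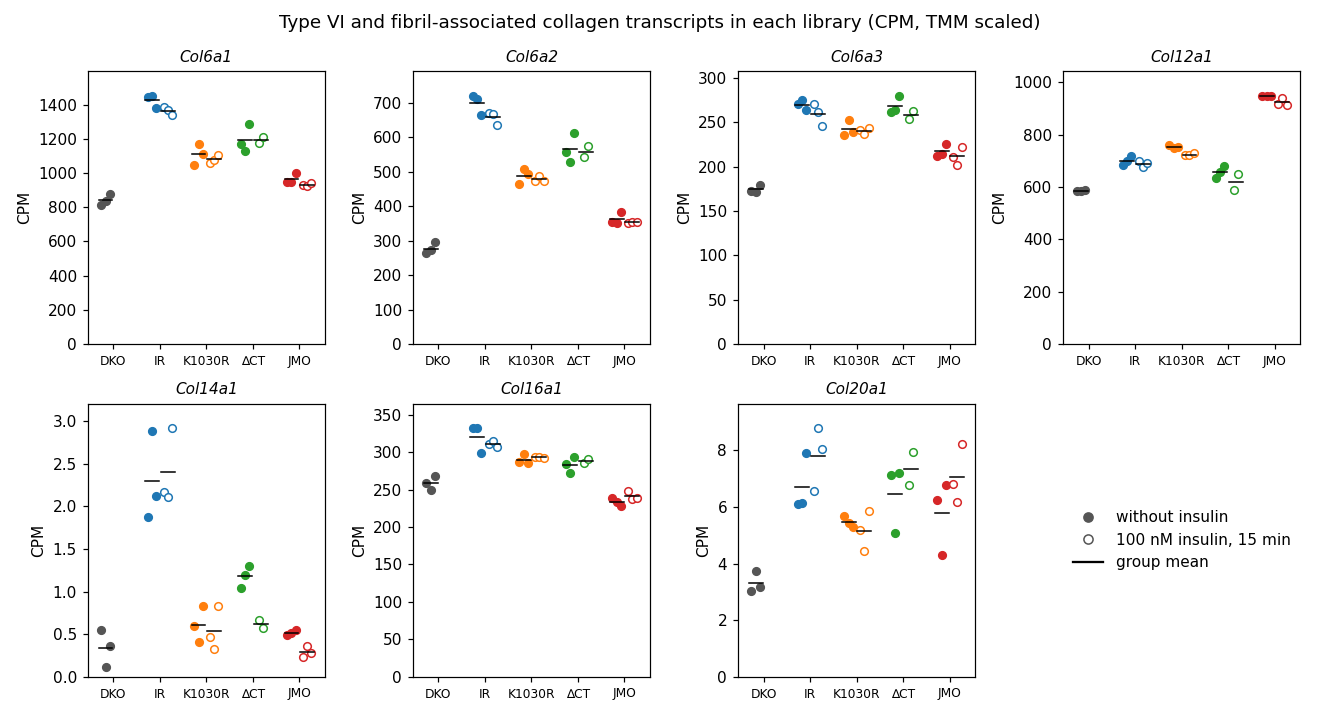
CPM of each gene in every library (1 point per library, horizontal lines for group means) by line, filled without insulin and open with 100 nM insulin for 15 min; each vertical axis starts at 0. For *Col6a2* the 3 IR libraries without insulin lie at 664 to 721 CPM, above all other lines, and the DKO libraries at 263 to 295 CPM lie below them, while *Col12a1* is highest in JMO cells.

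Between receptor lines, the type VI chains separated IR from JMO cells most widely. *Col6a2* was 1.93-fold higher in IR than in JMO cells (log2 0.95 ± 0.05, edgeR adjusted p = 1.98e-15), *Col6a1* was 1.48-fold higher (adjusted p = 6.52e-14) and *Col6a3* 1.24-fold higher (adjusted p = 1.81e-08). The kinase-inactive K1030R cells lay between them: *Col6a2* was 1.43-fold higher in IR than in K1030R cells (adjusted p = 2.71e-09) and 1.35-fold higher in K1030R than in JMO cells (adjusted p = 2.72e-08). For *Col6a3* the corresponding folds were 1.11 (adjusted p = 0.00174) and 1.12 (adjusted p = 0.00105), all by the edgeR test. In ∆CT cells *Col6a1* and *Col6a2* fell below IR by 0.26 and 0.30 on the log2 scale (edgeR adjusted p = 5.17e-06 and 1.82e-05), whereas for *Col6a3* the difference was -0.01 ± 0.04 (adjusted p = 0.921).

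∆CT and K1030R cells differed in 2 of the 3 type VI chains. *Col6a2* was higher in ∆CT by 0.21 ± 0.05 (log2, edgeR adjusted p = 0.00815) and *Col6a3* by 0.15 ± 0.04 (adjusted p = 0.0223), and *Col6a1* differed by 0.11 ± 0.04 (adjusted p = 0.143). These calls rested on single libraries. Without K1030R replicate 1 the adjusted p was 0.0723 for *Col6a2* and 0.128 for *Col6a3*, without ∆CT replicate 3 it was 0.051 and 0.108, and without K1030R replicate 3 it was 0.113 for *Col6a3*. *Col6a1* passed the test without K1030R replicate 2 (adjusted p = 0.0435) or without ∆CT replicate 2 (adjusted p = 0.0341), and fitting only the 2 groups gave an adjusted p of 0.103 for *Col6a2* and 0.119 for *Col6a3*, all with edgeR.

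Because the 3 chains form 1 heterotrimer, the balance of their transcripts was compared as ratios of counts within a library, which do not depend on how libraries are scaled. The ratio of *Col6a2* to *Col6a1* was 0.322, 0.325 and 0.337 in DKO libraries and 0.498, 0.489 and 0.481 in IR libraries without insulin. It was 0.443, 0.435 and 0.443 in K1030R, 0.477, 0.468 and 0.476 in ∆CT and 0.373, 0.370 and 0.383 in JMO libraries without insulin. The lines thus kept the order of the *Col6a2* level itself, and of the receptor lines over basal and insulin libraries, only IR and ∆CT overlapped. All 6 pairs of receptor lines differed in this ratio (adjusted p = 0.00857 to 0.0133 over 12 tests, exact permutation within treatment, two-sided), IR exceeding JMO 1.29-fold and ∆CT 1.03-fold. For these pairs the exact permutation p cannot fall below 0.005 before adjustment, and an adjusted p of 0.00857 stands at that floor. Against the 3 DKO libraries, each receptor line had the higher ratio in every library, where 3 against 3 cannot give an exact permutation p below 0.1, the value found.

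The ratio of *Col6a3* to *Col6a1* set IR cells apart in the other direction. It was 0.189 ± 0.00218 (SD, n = 3) in IR cells without insulin, against 0.219 ± 0.00565 in K1030R, 0.225 ± 0.00816 in ∆CT, 0.225 ± 0.00065 in JMO and 0.207 ± 0.00423 in DKO cells. IR cells had a lower ratio than each of the other 3 receptor lines, by a factor of 0.839 to 0.860 (adjusted p = 0.00857 each, exact permutation, two-sided). Before adjustment each of these stood at 0.005, the lowest p the exact permutation test can give here. K1030R, ∆CT and JMO overlapped, with adjusted p = 0.192 to 0.995 by the same exact permutation test.

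**Figure D3:**
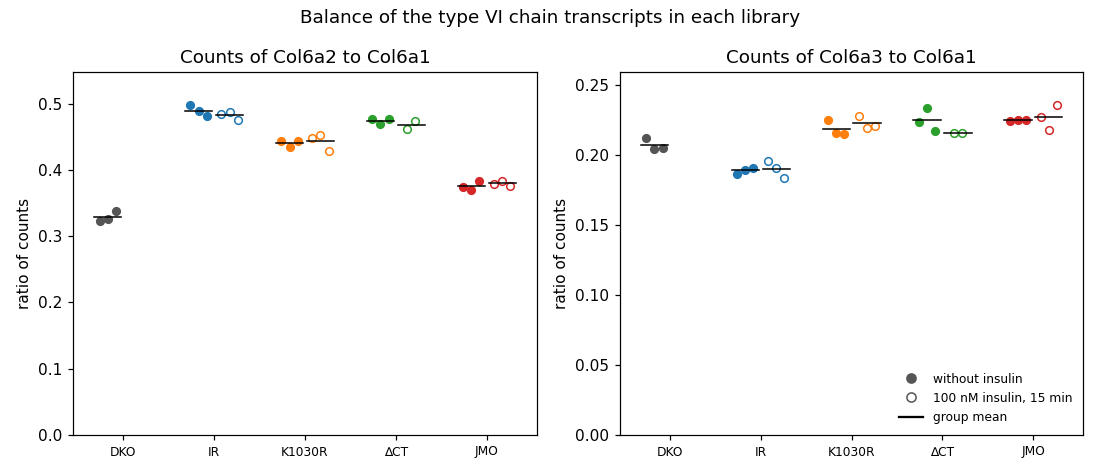
Ratio of counts of *Col6a2* to *Col6a1* (left) and of *Col6a3* to *Col6a1* (right) in each library by line, filled without insulin and open with insulin, with group means as horizontal lines and axes from 0. On the left the group means without insulin run from 0.328 in DKO to 0.489 in IR cells, and on the right IR cells lie lowest at 0.189.

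Since the 3 type VI genes moved together, the bases upstream of their starts are shown, from RefSeq promoter windows (GRCm38.p6). Windows were available for 5 of the 7 genes. For *Col6a1* the stretch upstream of the GENCODE start is chr10:76726169-76726294, for *Col6a2* it is chr10:76623631-76623880 and for *Col6a3* chr1:90843972-90844221, all on the minus strand, and capitals mark a match to a searched motif.
Col6a1: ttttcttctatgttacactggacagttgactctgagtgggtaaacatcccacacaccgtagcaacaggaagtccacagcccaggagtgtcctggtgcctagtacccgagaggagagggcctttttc
Col6a2: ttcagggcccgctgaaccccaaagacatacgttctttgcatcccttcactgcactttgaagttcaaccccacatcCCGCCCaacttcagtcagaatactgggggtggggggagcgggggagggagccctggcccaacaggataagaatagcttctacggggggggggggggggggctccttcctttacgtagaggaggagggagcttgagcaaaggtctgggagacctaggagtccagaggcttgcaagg
Col6a3: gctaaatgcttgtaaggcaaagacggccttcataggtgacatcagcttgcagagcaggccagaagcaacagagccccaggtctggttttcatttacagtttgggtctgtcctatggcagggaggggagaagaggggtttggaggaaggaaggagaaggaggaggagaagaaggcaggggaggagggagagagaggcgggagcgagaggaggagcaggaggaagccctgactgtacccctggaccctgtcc
Both strands were searched for the GC box GGGCGG, the CCAAT box CCAAT, the TATA box TATAAA and the AP-1 site TGANTCA. The *Col6a2* window shown held 1 GC box, a motif found in 32.7% of the 32851 promoter windows of 250 bases, and no match to the other 3. A second RefSeq window of *Col6a2*, chr10:76623405-76623654, most of which GENCODE places inside the gene, held 3 GC boxes, some of which shared bases. The *Col6a3* window and the *Col6a1* stretch held none of the 4, while the full 250-base window of *Col6a1*, part of which GENCODE places inside the gene, held 1 AP-1 match, as did 6.75% of all windows. The CCAAT box was in 33.8% and the TATA box in 12.4% of all windows.

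The fibril-associated chains did not share 1 pattern. *Col12a1*, the chain of type XII collagen on the surface of type I fibrils, was lowest in DKO cells, as the type VI chains were, but highest in JMO cells. Its CPM was 585, 585 and 587 in DKO, 949, 948 and 949 in JMO and 759, 750.0 and 752 in K1030R libraries. It was 685, 698 and 718 in IR and 633, 657 and 679.9 in ∆CT libraries. No 2 lines overlapped without insulin, and the rising order was DKO, ∆CT, IR, K1030R and JMO. The log2 fold change against DKO was 0.70 ± 0.03 in JMO (1.62-fold, edgeR adjusted p = 7.35e-19), 0.36 ± 0.03 in K1030R (adjusted p = 4.27e-12), 0.26 ± 0.03 in IR (adjusted p = 8.51e-09) and 0.16 ± 0.03 in ∆CT cells (adjusted p = 2.94e-05).

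*Col12a1* was 1.35-fold higher in JMO than in IR cells (edgeR adjusted p = 3.42e-14), 1.26-fold higher than in K1030R (adjusted p = 5.34e-11) and 1.45-fold higher than in ∆CT cells (adjusted p = 2.47e-16). It was 1.08-fold higher in K1030R than in IR cells (adjusted p = 0.00691) and 1.15-fold higher in K1030R than in ∆CT cells (adjusted p = 6.17e-05). The smallest of these differences, ∆CT against IR at -0.09 ± 0.03 (adjusted p = 0.0203), was not called without IR replicate 3 (adjusted p = 0.0976), without ∆CT replicate 1 (adjusted p = 0.159), with no filter on low counts (0.0811) or with only the 2 groups fitted (0.262), all edgeR adjusted p.

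*Col14a1*, the chain of type XIV collagen, had low counts throughout, most of them in IR and ∆CT cells. The 3 libraries of a group together held 21 counts in DKO, 140 in IR, 71 in ∆CT, 34 in K1030R and 33 in JMO cells without insulin. In CPM, DKO libraries gave 0.544, 0.114 and 0.36, IR libraries 1.88, 2.88 and 2.12, and ∆CT libraries 1.04, 1.2 and 1.29. K1030R libraries gave 0.592, 0.403 and 0.828, and JMO libraries 0.488, 0.51 and 0.545. The IR libraries lay above all others, the ∆CT libraries came next, and DKO, K1030R and JMO overlapped. The fold against DKO was 6.53 in IR (log2 2.71 ± 0.33, edgeR adjusted p = 1.29e-08) and 3.38 in ∆CT cells (adjusted p = 0.000103). It was 1.75 in K1030R (adjusted p = 0.109) and 1.48 in JMO cells (adjusted p = 0.301). At this depth the K1030R value depended on 1 library, since without DKO replicate 1 the log2 fold change was 1.23 with an adjusted p of 0.0355 (edgeR).

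Among the receptor lines, *Col14a1* was 4.4-fold higher in IR than in JMO (edgeR adjusted p = 3.56e-07), 3.73-fold higher than in K1030R (adjusted p = 6.21e-06) and 1.93-fold higher than in ∆CT cells (adjusted p = 0.00678). The last was not called without IR replicate 2, the highest IR library (adjusted p = 0.0599, edgeR). ∆CT exceeded JMO cells 2.28-fold (adjusted p = 0.00374) and differed from K1030R by 0.95 ± 0.33 on the log2 scale (adjusted p = 0.112, edgeR).

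*Col16a1*, the chain of type XVI collagen with many separate Gly-X-Y runs, had the narrowest range and was the 1 gene of the 7 that was lower in a receptor line than in DKO cells. Its CPM was 258, 249 and 268 in DKO, 332, 331 and 298 in IR and 238, 233 and 229 in JMO libraries. It was 286, 297 and 286 in K1030R and 284, 272 and 294 in ∆CT libraries. JMO lay below DKO and DKO below the other 3 lines without overlap, and K1030R and ∆CT overlapped. In log2 the difference from DKO was 0.31 ± 0.04 in IR (edgeR adjusted p = 5.73e-09), 0.13 ± 0.04 in ∆CT (adjusted p = 0.00267), 0.17 ± 0.04 in K1030R (adjusted p = 0.000314) and -0.15 ± 0.04 in JMO cells (adjusted p = 0.00171). IR exceeded JMO 1.37-fold (adjusted p = 9.84e-13), and ∆CT differed from K1030R cells by -0.03 ± 0.04 on the log2 scale (adjusted p = 0.735), by the same test.

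*Col20a1*, the chain of type XX collagen, was higher in all receptor lines than in DKO cells, and without insulin no pair of receptor lines was called. It stood at 3.04, 3.75 and 3.16 CPM in DKO, 6.11, 6.14 and 7.9 CPM in IR and 7.11, 5.09 and 7.19 CPM in ∆CT libraries. K1030R libraries gave 5.68, 5.44 and 5.28 CPM, and JMO libraries 6.26, 4.29 and 6.79 CPM. The DKO libraries lay below all others, and the receptor lines overlapped except K1030R and IR. Against DKO the fold was 2.03 in IR (log2 1.02 ± 0.17, edgeR adjusted p = 7.45e-06), 1.96 in ∆CT (adjusted p = 2.06e-05), 1.75 in JMO (adjusted p = 0.000388) and 1.65 in K1030R cells (adjusted p = 0.00121). The widest difference between receptor lines, K1030R against IR, was -0.30 ± 0.16 on the log2 scale (adjusted p = 0.171, edgeR). In the libraries with insulin the same difference was -0.60 ± 0.16 (adjusted p = 0.00308) and K1030R against JMO was -0.45 ± 0.16 (adjusted p = 0.024), both called by edgeR.

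**Figure D4:**
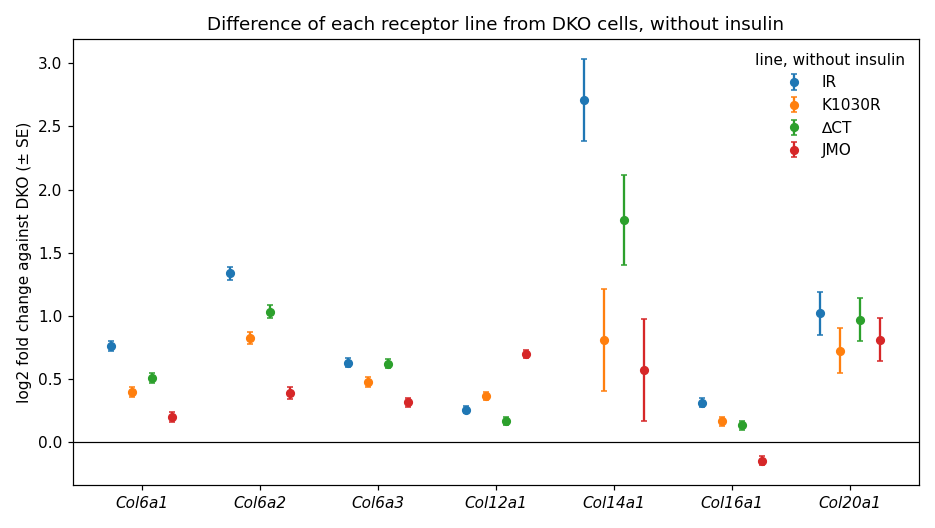
Log2 fold change of each gene against DKO cells without insulin in the 4 receptor lines (points, edgeR estimates with bars for the SE; the line at 0 marks no difference). Type VI chains fall in the order IR to JMO, *Col12a1* is highest in JMO (0.70) and *Col16a1* is below 0 in JMO (-0.15); the wide bars of *Col14a1* go with its low counts.

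The 7 genes and the lists below were chosen with earlier results of these data known. Counts set beside the shares of all genes therefore describe the family and are no test of it. Counted over the family, 7 of 7 genes were higher in IR than in DKO cells and none lower, against 25.6% of all tested genes called higher and 24.1% called lower. In ∆CT cells 7 were higher (all genes 23.4% higher, 22.9% lower), in K1030R cells 6 were higher (21.2% and 20.4%), and in JMO cells 5 were higher and 1, *Col16a1*, lower (16.9% and 17.4%). The median log2 fold change of the 7 was 0.76 in IR, 0.62 in ∆CT, 0.47 in K1030R and 0.39 in JMO cells, where the median of all tested genes was 0.01 in each. When a change of at least 1.5-fold was required (edgeR glmTreat), 4 of the 7 were called in IR (6.89% of all genes), namely *Col6a1*, *Col6a2*, *Col14a1* and *Col20a1*. This count was 3 without DKO replicate 1, DKO replicate 3 or IR replicate 3, and 3 with the corresponding limma test. In ∆CT cells 2 were called (*Col6a2* and *Col14a1*, 6.29% of all genes), in K1030R cells 1 (*Col6a2*, 5.29%) and in JMO cells 1 (*Col12a1*, 2.11%). These 4 comparisons share their DKO libraries, so their values stand side by side and are not independent of each other.

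Between receptor lines, 5 genes were higher and 1 lower in IR than in JMO cells (all genes 21.8% higher, 20.7% lower), 2 of them, *Col6a2* and *Col14a1*, past the 1.5-fold requirement (4.59%). In K1030R against JMO cells 4 were higher and 1 lower (18.0% and 17.4%), and in ∆CT against JMO cells 5 higher and 1 lower (19.3% and 19.5%). The gene that was lower in each of these was *Col12a1*. In K1030R against IR cells 5 were lower and 1, *Col12a1*, higher (16.3% and 13.9%), with *Col14a1* past 1.5-fold (1.04%). In ∆CT against IR cells 5 were lower and none higher (14.8% and 11.2%). In ∆CT against K1030R cells 2 were higher, *Col6a2* and *Col6a3*, and 1 lower, *Col12a1* (1.49% and 1.95%), a count that was 1 without K1030R replicate 1 or without ∆CT replicate 3.

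Insulin for 15 min gave no call for any of the 7 genes in any line by edgeR, DESeq2 or limma. Of all tested genes 1.87% were called in IR, 1.01% in ∆CT, 0.364% in JMO and 0.156% in K1030R cells by edgeR at adjusted p below 0.05. At an unadjusted p under 0.05 the edgeR test had 0 of 7 in IR, K1030R and JMO cells and 2 in ∆CT cells, *Col12a1* and *Col14a1*. The share of all genes at that unadjusted threshold was not computed, so these counts have no measure beside them. For the 5 abundant genes the insulin effect ran from -0.09 ± 0.05 (log2, *Col6a2* in IR cells) to 0.05 ± 0.04 (*Col16a1* in JMO cells). *Col14a1* in ∆CT cells stood at 0.672 and 0.577 CPM with insulin, below the 3 libraries without it, a difference of -0.91 ± 0.36 on the log2 scale (adjusted p = 0.376, edgeR). *Col20a1* in IR cells stood at 6.56, 8.77 and 8.05 CPM with insulin, overlapping the libraries without it (0.22 ± 0.15, adjusted p = 0.544, edgeR).

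By the edgeR interaction test, no insulin effect on the 7 genes in K1030R, ∆CT or JMO was called different from that in IR cells. Of all genes 0.370%, 0.00649% and 0.279% were called at the same adjusted threshold. At an unadjusted p under 0.05 the test had 0, 1 and 0 of 7, and the share of all genes there was not computed. Between receptor lines, the libraries with insulin gave the same call as those without in 34 of 42 comparisons of a gene. *Col6a2* was then 0.90 ± 0.05 higher (log2) in IR than in JMO cells (edgeR adjusted p = 6.41e-15), *Col12a1* was -0.42 ± 0.03 (adjusted p = 8.61e-14) and *Col14a1* 3.03 ± 0.34 (adjusted p = 3.38e-09). Over both treatments, *Col6a2* spanned 636 to 721 CPM in the 6 IR libraries, 529 to 613 in the 5 ∆CT, 465 to 509 in the 6 K1030R and 352 to 382 in the 6 JMO libraries, with no overlap between lines. Of the called differences, 5 were not called with insulin: *Col14a1* between ∆CT and JMO (edgeR adjusted p = 0.0609), *Col12a1* between K1030R and IR (0.0628), *Col16a1* between K1030R and IR (0.0695) and between ∆CT and IR (0.0552), and *Col6a3* between ∆CT and K1030R (0.183). In turn 3 were called only with insulin, those of *Col20a1* given above and *Col6a1* between ∆CT and K1030R (0.0437).

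Across the 9 group means of log2 CPM, which share lines and library sets, the type VI chains ran closely together, with Pearson r = 0.99 for *Col6a1* and *Col6a2*, 0.96 for *Col6a2* and *Col6a3* and 0.92 for *Col6a1* and *Col6a3*. *Col14a1* and *Col6a1* gave 0.93, and *Col16a1* and *Col6a1* gave 0.86. *Col12a1* went its own way, at -0.26, -0.25 and -0.11 with *Col6a1*, *Col6a2* and *Col6a3* and at -0.57 with *Col16a1*. These coefficients describe 9 points from 5 lines and carry no test.

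Over the same 9 means, the genes most like each of the 7 among the other 15401 tested were found. They were *Gm40881*, *Slc9a9* and *L3mbtl3* for *Col6a1* (r = 0.997 to 0.995), *Gemin8*, *Xrcc5* and *Osr2* for *Col6a2* (0.996 to 0.995) and *Pnkd*, *Atxn10* and *Plekha2* for *Col6a3* (0.993 to 0.992). For *Col12a1* they were *Lpl*, the lipoprotein lipase gene, *Gas6*, a ligand of TAM receptors, and *Itga1*, a collagen-binding integrin subunit (0.997 to 0.981). They were *Rftn2*, *Xylb* and *St6gal1* for *Col14a1* (0.976 to 0.973), *Rara*, *Glis2* and *Pdzrn3* for *Col16a1* (0.995 to 0.986) and *Zdhhc1*, *Acrbp* and *Sncaip* for *Col20a1* (0.983 to 0.962).

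Of 9 other genes for chains of type VI and of interrupted-helix collagens, 8 were matched to the table (*Col21a1* was not analysed here) and 2 passed the filter, *Col6a5*, which encodes an alternative type VI chain, and *Col9a3* of type IX collagen. *Col6a5* stood at a mean of 0.1 CPM in DKO, 0.786 in IR, 0.428 in ∆CT, 0.299 in JMO and 0.172 in K1030R cells, and was called higher than DKO in IR (log2 2.94), ∆CT (2.06) and JMO cells (1.59, edgeR adjusted p = 0.0479). Of these means only that of IR cells lay above the filter level of 0.5 CPM, so the filter favoured a difference there. *Col9a3* was called higher in IR cells, at 2.74 against 1.45 CPM (log2 0.93).

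The fibrillar collagens, whose fibrils the fibril-associated chains coat, had 10 of 11 listed chains tested. Against DKO, 10 were higher in IR (25.6% of all tested genes), 9 in ∆CT (23.4%) and also 9 in K1030R cells (21.2%) with none lower, and 6 were higher and 2 lower in JMO cells (16.9% and 17.4%), and the median log2 fold change was 1.04 in IR, 0.81 in ∆CT, 0.69 in K1030R and 0.21 in JMO cells. *Col3a1*, the type III chain, had log2 fold changes of 1.41 in IR, 0.86 in ∆CT, 0.55 in K1030R and -0.59 in JMO cells. *Col11a1*, of type XI collagen, had 2.03, 1.28, 1.16 and -0.17 in the same order, and *Col1a1* and *Col1a2*, the type I chains, had 1.15 and 1.11 in IR and 0.19 and 0.07 in JMO cells. All of these passed the edgeR test. *Col2a1*, of type II collagen, had 1.39 to 1.87 in the 4 lines at mean levels below 1 CPM. Of its means without insulin only that of DKO cells (0.247 CPM) lay below the filter level of 0.5 CPM, so the filter favoured a difference there.

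Of 14 tested receptors and matrix partners of type VI, XII and XIV collagens, 10 were higher and 3 lower in IR than in DKO cells (all genes 25.6% and 24.1%), 5 and 6 in ∆CT (23.4% and 22.9%), 6 and 6 in K1030R (21.2% and 20.4%) and 3 and 5 in JMO cells (16.9% and 17.4%), so the 3 of 14 higher in JMO and the 3 of 14 lower in IR lay near the share of all genes. Decorin (*Dcn*), a proteoglycan that binds type VI collagen, was higher in IR (0.88) and lower in ∆CT (-0.67), K1030R (-1.26) and JMO cells (-1.79) on the log2 scale. *Itga10*, a collagen-binding integrin subunit, was higher in IR (1.53), ∆CT (0.64) and K1030R (0.56) and lower in JMO cells (-0.87). Fibromodulin (*Fmod*) was highest in JMO cells, at 14.1 CPM against 3.63 in DKO (log2 1.94), and tenascin C (*Tnc*) was lower in all 4 lines and most in IR (-1.12). Lumican (*Lum*) was higher in IR (2.98) and ∆CT cells (2.13) from a mean of 0.0848 CPM in DKO. Of its means without insulin only that of IR cells (0.823 CPM) lay above the filter level of 0.5 CPM, so the filter favoured a difference there. Of 16 tested genes for collagen synthesis and processing, 9 were higher and 2 lower in IR, 7 and 5 in ∆CT, 6 and 5 in K1030R and 4 and 6 in JMO cells, against the same shares of all genes. *Serpinh1*, the collagen chaperone HSP47, was higher in all 4 lines (log2 0.73 in IR, 0.73 in ∆CT, 0.65 in K1030R and 0.27 in JMO). *Mmp14*, a membrane-bound protease, was higher in IR (0.40) and lower in JMO (-0.59), K1030R (-0.19) and ∆CT cells (-0.12). *Mmp2*, the gelatinase it activates, was lower in K1030R (-1.43), JMO (-1.01) and ∆CT cells (-0.90), and was -0.07 in IR cells (edgeR adjusted p = 0.357). The lysyl hydroxylase *Plod2* and the prolyl isomerase *Fkbp10* were higher in IR (0.48 and 0.41), ∆CT (0.27 and 0.46) and K1030R (0.16 and 0.39) and were -0.03 and 0.07 in JMO cells, where neither was called.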

How the data were processed

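Polyadenylated RNA of 26 libraries was prepared with the KAPA mRNA HyperPrep kit. The authors deposited 1 table of estimated counts per Ensembl gene, made with fastp and kallisto per the labels. Reads were reverse-stranded and single-end, were aligned to the mouse Ensembl transcriptome, and were summed to genes with tximport per the study's methods. Tool versions and the strand setting of kallisto are not given in the sources used here. Counts were rounded, TMM-scaled and kept for genes with CPM above 0.5 in at least 4 libraries. All 9 groups were fitted together with 1 mean each (R 4.3.3, edgeR 4.0.16, glmQLFit robust), with Benjamini-Hochberg adjustment over all 15402 tested genes and calls at adjusted p below 0.05. Ratios of chains were tested by exact permutation. The study's methods used limma, which was an alternative here (limma 3.58.1), as were DESeq2 1.42.0, RLE scaling, other filters, unrounded counts, pairwise fits, a replicate block and leaving out each library. Between libraries of a group, the chi-square per degree of freedom was 2.83 to 22.5, so none were duplicates. On simulated counts for IR against DKO (15402 genes), 25 of 50 genes changed 1.25-fold and 41 of 50 changed 2-fold were recovered, with 9 unchanged genes called.

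The 7 genes and all lists were chosen with earlier results of these data known. Named genes were the 7, up to 5 called genes per list by largest change against DKO, and the 3 most alike in pattern per gene. Gene models shown here were from GENCODE M21, which is not the release the authors used. Over all pairs of libraries from different groups, the median correlation of deviations was -0.00111 for 100 same-numbered and -0.00162 for 200 different-numbered pairs. Pairing of the libraries with and without insulin within a line was not tested.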

Additional observations from a re-analysis of the deposited data

How the results depend on the processing

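Of the line comparisons of the 7 genes, none changed its call with RLE scaling, a 10-count filter, unrounded counts, DESeq2, limma or the replicate block. With only the 2 groups compared, the count of genes called between ∆CT and K1030R was 1, and leaving out 1 library gave 1 to 4. With libraries given insulin in place of the others, 5 calls between receptor lines were lost and 3 gained out of 42. Signs changed only for differences near 0 that were not called. For Col6a3, ∆CT minus IR was 0.00212 with RLE scaling, 0.00246 with the 10-count filter, 0.00209 with DESeq2 and 0.0100 with only the 2 groups, and its difference of insulin effects between ∆CT and IR was 0.00303 with RLE scaling and 0.00626 with the replicate block. The insulin effect on Col6a1 in ∆CT cells was 0.00376 (RLE scaling), 0.00772 (no filter), 0.00854 (10-count filter), 0.0107 (replicate block), 0.00383 (DESeq2), 0.00136 (limma) and 0.00796 (2 groups). The difference of insulin effects on Col20a1 between ∆CT and IR was 0.0354 with the replicate block, which changed no call. Samples shared a number but no stated batch or day, so the reported values carry no block.

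Leaving out 1 library gave ranges across 0 as follows, all on the log2 scale: ∆CT minus IR, -0.0383 to 0.011 for Col6a3 and -0.133 to 0.0923 for Col20a1; K1030R minus JMO, -0.0618 to 0.475 for Col14a1 and -0.254 to 0.0312 for Col20a1; ∆CT minus JMO, -0.0100 to 0.301 for Col20a1. For insulin they were -0.0895 to 0.261 for Col14a1 in IR cells, -0.0304 to 0.0186 for Col6a3, -0.621 to 0.13 for Col14a1 and -0.184 to 0.0167 for Col20a1 in K1030R cells, -0.0408 to 0.0552 for Col6a1, -0.0683 to 0.0389 for Col6a2 and -0.00399 to 0.0521 for Col16a1 in ∆CT cells, and -0.0574 to 0.00282 for Col6a2 in JMO cells. The Col6a3 to Col6a1 ratio of K1030R minus ∆CT ran from -0.0117 to 0.0142. With the median length of protein-coding transcripts in place of the longest, which for Col16a1 is a short fragment, the mean level per kb over groups was 115 for Col6a2, 28.7 for Col6a3, 73.7 for Col12a1, 619 for Col16a1 (53.7 with the longest) and 1.47 for Col20a1. The depth limits Col14a1 most, with 17 to 149 counts per group.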
